A study of Mus musculus with 32 samples.

Results

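The apolipoprotein A1/C3/A4/A5 cluster was examined in mouse liver as a stretch of chromosome 9 that holds the genes Apoa1, Apoc3, Apoa4 and Apoa5. Its members were selected by position: an interval belonged to the cluster when its centre lay in chr9:45950000-46120000 (build mm9), a window of 170 kb. Of the 180039 intervals in the 5 lists used here, 89 met this rule: 15 peaks of the glucocorticoid receptor (GR), 14 peaks of the transcription factor C/EBPβ in vehicle liver and 15 after dexamethasone, and 21 DNase I hypersensitive sites (DHS) in vehicle liver and 24 after dexamethasone. The window was picked with its many GR peaks already known, so its counts and its rank among other windows are a description and were not tested.

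The livers came from male C57BL/6 mice, 8 weeks old, whose adrenal glands had been removed, which takes away the main source of their own glucocorticoid. The dexamethasone groups received the synthetic glucocorticoid at 1 mg/kg as a cyclodextrin complex in 300 ul of saline, and liver was examined 1 h after this injection. The vehicle groups received cyclodextrin alone. DNase-seq, which finds accessible chromatin by its sensitivity to DNase I, and ChIP-seq, which finds DNA bound by a protein, were each done on 2 samples per treatment. Each treatment has 1 list of DHS and 1 of C/EBPβ peaks, and the GR list names no treatment. The lists hold positions with no height, count or replicate, so the depth behind an interval is unknown, and an interval that is in 1 list only may differ from the other list in signal by any amount. Whole liver was used, so the cell type that gave an interval cannot be told.

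The 4 genes encode proteins of blood lipoproteins. ApoA-I is the main protein of high-density lipoprotein, apoC-III slows the breakdown and uptake of triglyceride-rich particles, apoA-IV is carried on chylomicrons and high-density lipoprotein, and apoA-V favours the breakdown of triglyceride by lipoprotein lipase. Hepatocytes make and secrete these proteins. GR is a receptor that binds DNA once a glucocorticoid has bound it, and C/EBPβ is a leucine zipper factor abundant in hepatocytes.

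In the RefSeq gene table (GRCm38.p6), all 4 genes were found by symbol, in the order Apoa1, Apoc3, Apoa4 and Apoa5, with 0 other genes between them. The nearest protein-coding neighbours were Sik3, a kinase of the salt-inducible family, before Apoa1, and Zpr1, a zinc finger protein gene, and Bud13, a splicing factor gene, after Apoa5. Gene positions in mm9 were not used here and positions were not converted between builds. No interval below is therefore assigned to a gene, a promoter, an exon or an intron.

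The promoter table from RefSeq (GRCm38.p6), from 250 bases before to 50 after each gene start, gave sequences for 3 of the 4 genes. The exception was Apoc3. They are shown because they are the regulatory sequence at hand for these genes, and whether an interval of the lists covers them was not tested. Each was searched on both strands for ACANNNTGT (the core of a GR palindrome), TGTTCT (a single arm of such a palindrome, here the GR hexamer), TTGCNNAA (C/EBP), CAAAGTCCA (HNF4, a nuclear receptor of hepatocytes) and TATAAA (the TBP box of core promoters). Capitals mark every match.

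Apoa1 promoter (chr9:46228380-46228679, plus strand, GRCm38.p6): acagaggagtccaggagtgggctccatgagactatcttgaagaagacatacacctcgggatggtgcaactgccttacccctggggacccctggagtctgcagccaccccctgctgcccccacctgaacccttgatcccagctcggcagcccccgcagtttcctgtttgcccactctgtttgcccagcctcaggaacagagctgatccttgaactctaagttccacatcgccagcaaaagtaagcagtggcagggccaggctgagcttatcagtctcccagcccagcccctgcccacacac
Apoa4 promoter (chr9:46240594-46240893, plus strand, GRCm38.p6): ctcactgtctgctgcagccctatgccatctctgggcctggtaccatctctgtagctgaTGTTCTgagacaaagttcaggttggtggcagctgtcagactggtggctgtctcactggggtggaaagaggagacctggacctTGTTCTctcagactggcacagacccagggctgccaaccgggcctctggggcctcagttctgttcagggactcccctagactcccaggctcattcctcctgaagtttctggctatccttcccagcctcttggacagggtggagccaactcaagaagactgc
Apoa5 promoter (chr9:46268358-46268657, plus strand, GRCm38.p6): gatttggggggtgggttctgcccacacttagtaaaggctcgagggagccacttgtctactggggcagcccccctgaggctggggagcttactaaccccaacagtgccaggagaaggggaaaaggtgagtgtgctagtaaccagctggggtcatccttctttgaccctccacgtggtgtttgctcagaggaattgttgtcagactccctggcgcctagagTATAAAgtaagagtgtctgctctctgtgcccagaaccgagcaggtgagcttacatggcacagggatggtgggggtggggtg

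The Apoa1 promoter held none of the 5 motifs. The Apoa4 promoter held the GR hexamer at 2 places, starting 192 and 110 bases before the gene start, and none of the others. The Apoa5 promoter held the TBP box alone, 31 bases before the start shown, and its second start in the table lies 25 bases further on. Among the 32851 promoters of the table, 19.0% held the GR hexamer, 6.85% the palindrome core, 10.8% the C/EBP motif, 0.475% the HNF4 motif and 13.6% the TBP box. Of 10 other apolipoprotein genes looked up, 8 had a promoter in the table, and the GR hexamer was in that of Apoc2, Apoe, Apoh and Apom, the palindrome core in that of Apoa2, the C/EBP motif in those of Apoa2 and Apob, the TBP box in those of Apoa2, Apob and Apoe, and the HNF4 motif in none. The hexamer is short, and a match is a string of letters, not a bound site. Only the strings as written were searched, so a promoter without a match may still hold a variant of the motif.

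GR peaks were packed densely in the cluster. The 15 peaks spanned 62.2 kb from the first centre to the last, with a median gap of 2881 bp between neighbours (14 gaps, from 203 to 15027 bp). Over all autosomes the median gap between neighbouring GR peaks was 28938 bp (11545 gaps). Of the gaps in the cluster, 10 of 14 were under 5000 bp, against 23.7% of autosomal gaps. Among 11298 overlapping runs of 15 consecutive GR peaks on the autosomes, 1 was shorter than the run of the cluster, at 61.0 kb, and the median run was 2028 kb long.

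**Figure D1:**
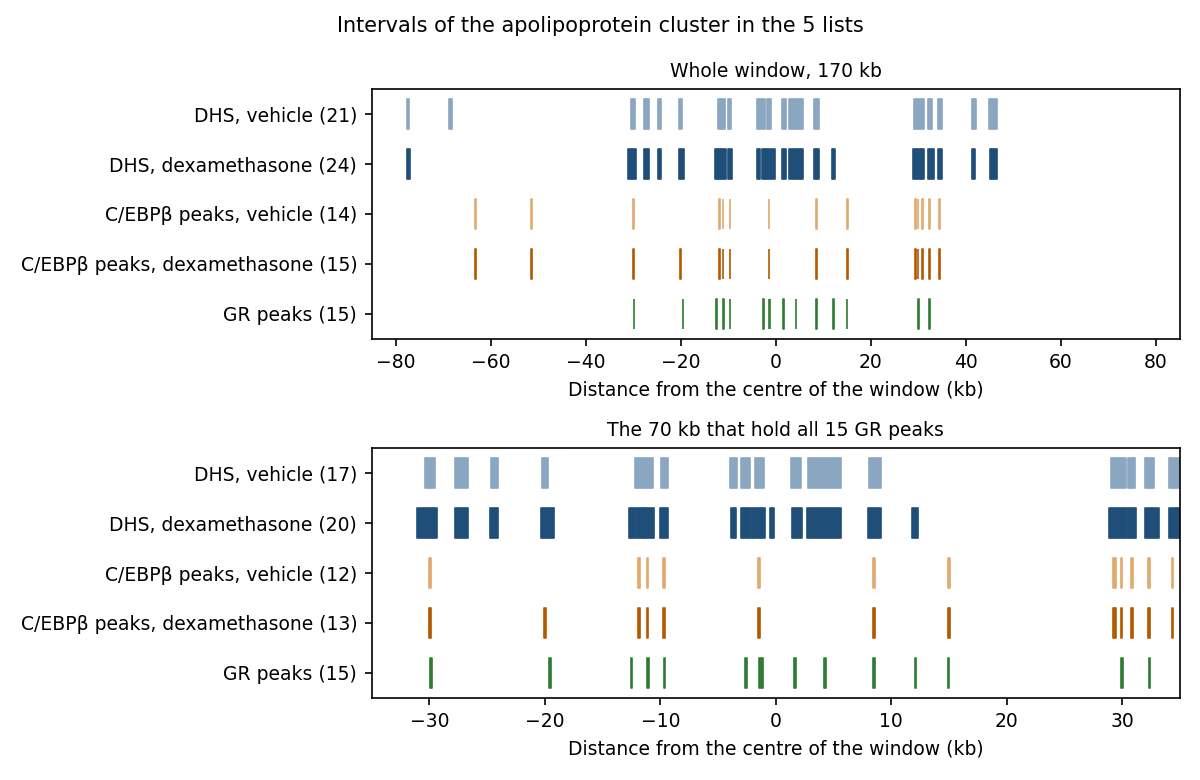
Position of every interval of the cluster, as distance from the centre of the window in kb, with 1 row per list and the number of intervals in brackets, for the whole window (top) and its middle 70 kb (bottom). Bars are drawn to the width of the interval plus a thin outline. All 15 GR peaks and 20 of 24 dexamethasone DHS lie in the middle 70 kb.

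The window stood near the top of the autosomes in each list. Of 14147 other autosomal windows of 170 kb, 14143 had fewer GR peaks, 1 had as many and 3 had more. The median window had 0 GR peaks, and 68.9% of windows had none. Fewer vehicle C/EBPβ peaks than the 14 of the cluster were found in 99.7% of windows, fewer dexamethasone C/EBPβ peaks in 99.6%, fewer vehicle DHS in 99.6% and fewer dexamethasone DHS in 99.8%. The cluster stood out less among the 82 other windows with 10 or more GR peaks. Of these, 63 had fewer vehicle and 55 fewer dexamethasone C/EBPβ peaks, and 69 had fewer vehicle and 73 fewer dexamethasone DHS. The middle 70 kb of the window (chr9:46000000-46070000) held all 15 GR peaks, 12 of 14 vehicle and 13 of 15 dexamethasone C/EBPβ peaks, and 17 of 21 vehicle and 20 of 24 dexamethasone DHS.

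**Figure D2:**
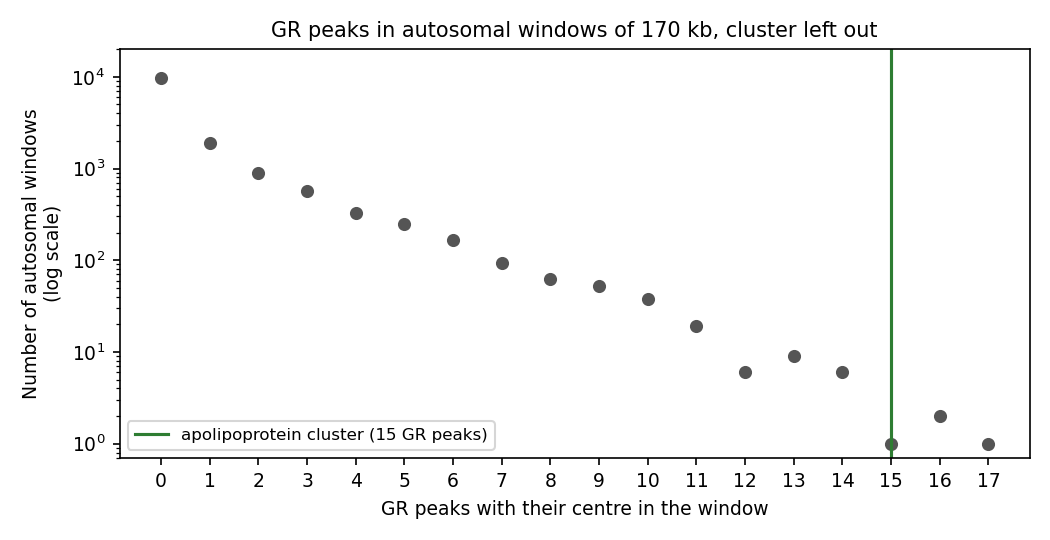
Number of autosomal windows of 170 kb (log scale) by the number of GR peaks in them, with the cluster left out of the points and drawn as a line at 15 GR peaks. Of the 14147 windows, 9741 had 0 GR peaks and 4 had 15 or more.

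Most GR peaks of the cluster lay in chromatin that was already accessible in vehicle liver. A vehicle DHS overlapped 11 of the 15 by at least 1 bp (73.3%, 95% Wilson interval 48.0 to 89.1), beside 79.3% of all autosomal GR peaks. Intervals given for shares cover counting error only, and peaks that lie close together are not independent. In the dexamethasone list 14 of the 15 lay in a DHS (93.3%, 70.2 to 98.8), beside 96.6% on the autosomes. By class, 2 (13.3%, 3.74 to 37.9, against 15.5% on the autosomes) lay in a DHS found only after dexamethasone, 1 lay in the part by which a DHS of both lists reached beyond its vehicle extent (1.98% on the autosomes), and 1 lay in no DHS of either list (3.26%). The share in vehicle DHS was thus near that of GR peaks in general.

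The 11 GR peaks in vehicle DHS fell into those with and those without C/EBPβ. A C/EBPβ peak found in both lists overlapped 7 of them, at chr9:46005086-46005236, chr9:46023869-46024019, chr9:46025290-46025440, chr9:46033514-46033664, chr9:46043455-46043605, chr9:46064927-46065077 and chr9:46067305-46067455. These 7 made up 46.7% of the GR peaks (24.8 to 69.9), against 49.1% on the autosomes. The closest pair of centres was 1.5 bp apart, at chr9:46043455-46043605, where all 150 bp of the GR peak lay within the C/EBPβ peak. The next were 13 bp apart at chr9:46025290-46025440 and 18 bp apart at chr9:46033514-46033664. The loosest of the 7 was the first GR peak of the cluster, with its centre 121 bp from that of C/EBPβ and 29 bp shared.

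The other 4 GR peaks in vehicle DHS had no C/EBPβ peak of either list (26.7%, 10.9 to 52.0, against 21.9% on the autosomes). They were chr9:46032343-46032493, chr9:46033717-46033867, chr9:46036622-46036772 and chr9:46039161-46039311, with centres 1153, 221, 3126 and 4296 bp from the nearest C/EBPβ centre. The second of these shared its DHS with the GR peak at chr9:46033514-46033664, whose centre was 203 bp away, and that DHS was the only one in the cluster, in either list, with 2 GR peaks. The last lay in the widest DHS of the cluster, within 6 bp of its centre in the vehicle list. That DHS was 2912 bp wide in the vehicle list and 2961 bp in the dexamethasone list. Of the 55069 autosomal vehicle DHS, 13 were wider. No C/EBPβ peak of either list lay in it.

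**Figure D3:**
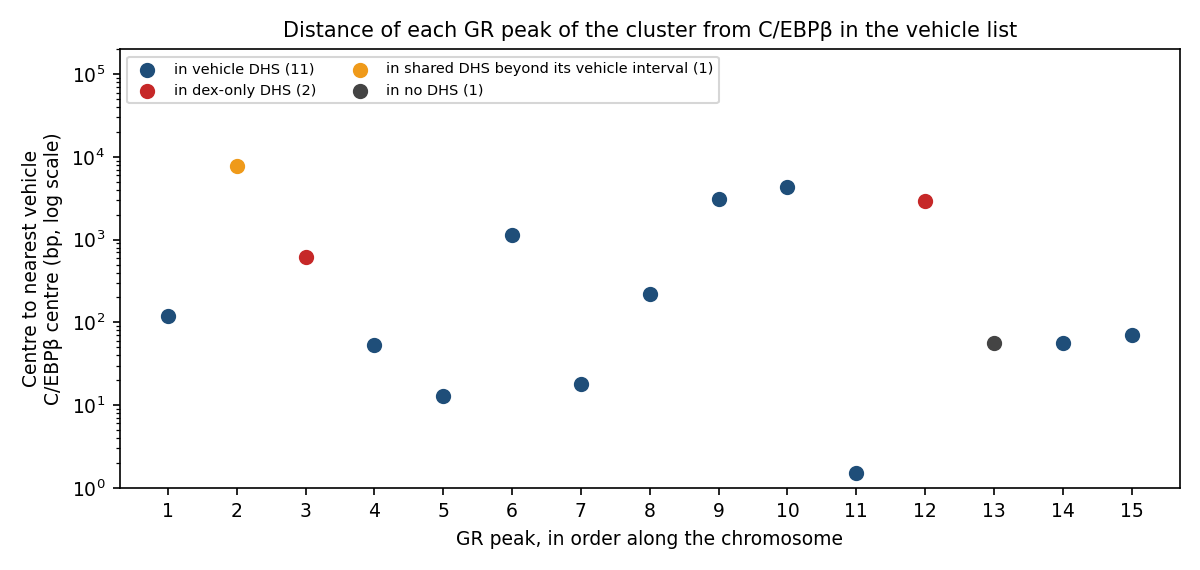
Distance in bp (log scale) from the centre of each of the 15 GR peaks, in chromosome order, to the nearest C/EBPβ centre of the vehicle list, coloured by the accessibility class of the GR peak. Points of vehicle DHS run from 1.5 to 4296 bp, both peaks in dex-only DHS lie at 625 bp or more, and the peak in no DHS lies at 57 bp.

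The 3 GR peaks that were accessible after dexamethasone alone all lacked C/EBPβ, so that 7 of the 15 had no C/EBPβ peak of either list (46.7%, against 37.5% on the autosomes). The peaks at chr9:46022428-46022578 and chr9:46047043-46047193 lay in dex-only DHS of 570 bp (chr9:46022253-46022823) and 523 bp (chr9:46046839-46047362), with their centres 35 and 17.5 bp from the centre of the DHS. The first of these DHS ended 28 bp before a shared DHS at chr9:46022851-46023507 that carried C/EBPβ in both lists. The second stood alone, and the edge of its GR peak was 2889 bp from the nearest vehicle DHS. The third dex-only DHS of the cluster, chr9:46034461-46034829, was 368 bp wide and held neither GR nor C/EBPβ. GR was thus in 2 of 3 dex-only DHS, against 12.2% of dex-only DHS on the autosomes, a count too small to set apart.

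The GR peak at chr9:46015388-46015538 lay at a DHS whose extent and C/EBPβ peak both differed between the lists. In the vehicle list the DHS there ended 84 bp short of the GR peak (chr9:46014731-46015304, 573 bp). In the dexamethasone list it reached past it (chr9:46014667-46015788, 1121 bp), and 484 of the 548 bp gained were on the side of the GR peak. The same DHS held the only C/EBPβ peak of the cluster found in 1 list, chr9:46014932-46015082, found after dexamethasone. The 2 peaks did not touch: their centres were 456 bp apart, and the C/EBPβ peak lay in the part of the DHS that was present in vehicle liver too.

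The GR peak at chr9:46049900-46050050 was the opposite case, with C/EBPβ but no DHS. A C/EBPβ peak found in both lists, chr9:46049957-46050107, shared 93 bp with it, while the nearest DHS edge was 5746 bp away in the vehicle list and 2538 bp away in the dexamethasone list. GR peaks on a vehicle C/EBPβ peak and outside every DHS were rare, at 14 of 11564 on the autosomes (0.121%), this one included. Of the other C/EBPβ peaks of the cluster, chr9:45971750-45971900 and chr9:45983581-45983732 also lay outside DHS in both lists. They had no GR peak within 21 kb.

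C/EBPβ itself was nearly the same in both lists. All 14 vehicle peaks were in the dexamethasone list, so 0 of 14 were lost, which allows a share of up to 21.4%, and 10.5% were lost on the autosomes. Of the 15 dexamethasone peaks, 1 was absent from the vehicle list (6.67%, 1.19 to 29.8), against 20.0% on the autosomes. At GR peaks, 0 of 15 gained C/EBPβ, which allows up to 20.0%. The autosomal share of 11.9% lies under that limit, so 15 peaks do not set the cluster apart from it. With edges within 500 bp, 66.7% of the GR peaks had a vehicle C/EBPβ peak and 73.3% a dexamethasone one, so the count of 0 holds for overlap only. A vehicle C/EBPβ peak lay on 8 GR peaks (53.3%, 30.1 to 75.2, against 50.5%), and a dexamethasone one on the same 8 (against 62.1%). Seen from C/EBPβ, 8 of 14 vehicle peaks (57.1%, 32.6 to 78.6) carried GR, against 26.1% on the autosomes; since the window was picked for its GR peaks, a raised share follows from that choice. A vehicle DHS overlapped 11 of 14 vehicle C/EBPβ peaks (78.6%, against 82.8%), and a dexamethasone DHS 12 of 15 dexamethasone ones (80.0%, against 85.7%).

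DHS of the cluster were often GR-bound and mostly present in both lists. A GR peak lay in 13 of 24 dexamethasone DHS (54.2%, 35.1 to 72.1), against 17.1% on the autosomes, and this share follows from the GR density for which the window was picked. C/EBPβ lay in 10 of 21 vehicle DHS (47.6%, 28.3 to 67.6, against 31.7%) and in 11 of 24 dexamethasone DHS (45.8%, 27.9 to 64.9, against 32.4%), each with the list of the same treatment. Of the 24, 8 held GR and dexamethasone C/EBPβ (33.3%, against 12.0%), 5 held GR alone (20.8%, against 5.06%), 3 held C/EBPβ alone (12.5%, against 20.4%) and 8 held neither (33.3%, against 62.6%). On the autosomes, 7385 of the 10494 dexamethasone DHS with GR also held C/EBPβ. Of those without GR, 12507 held C/EBPβ and 38445 did not. The C/EBPβ shares and this split are thus not independent of the GR density for which the window was picked. Absent from the vehicle list were 3 of 24 (12.5%, 4.34 to 31.0), against 23.6% on the autosomes. Absent from the dexamethasone list was 1 of 21 vehicle DHS (4.76%, 0.846 to 22.7), against 14.9%. This was chr9:45966330-45966843, 513 bp wide, which held neither GR nor C/EBPβ.

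The DHS were also wide. Their median width was 792 bp in the vehicle list and 835 bp in the dexamethasone list, against 598 and 593 bp on the autosomes. DHS with GR were wide on the autosomes too. Among DHS matched one to one between the lists, those with GR had autosomal medians of 714 bp (vehicle) and 806 bp (dexamethasone). Those without GR had 609 and 603 bp. The part of the GR density in the width of the cluster was not tested. After the site of 2912 bp, the widest in the vehicle list were chr9:46079833-46081558 (1725 bp), which held neither factor, and chr9:46064004-46065337 (1333 bp), which held 1 GR peak and 2 C/EBPβ peaks. The first of these was entered in the dexamethasone list as 2 intervals of 473 and 908 bp, which share 1 bp as read here. In the dexamethasone list the widest after that of 2961 bp were chr9:46003930-46005658 (1728 bp) and chr9:46063852-46065464 (1612 bp), each with GR and C/EBPβ. DHS covered 11.4% of the window in the vehicle list and 13.5% in the dexamethasone list.

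DHS that held GR were mostly wider in the dexamethasone list, while those without GR were about as often narrower. For 19 DHS an interval of each list overlapped the other and no further one, and 14 of the 19 were wider after dexamethasone, against 51.1% on the autosomes. Of the 11 with a GR peak, 10 were wider in the dexamethasone list, with a median width ratio (dexamethasone to vehicle, log2) of 0.22, and 70.8% of such DHS were wider on the autosomes (8052 DHS, median 0.12). Of the 8 without GR, 4 were wider, with a median of 0.0087, and on the autosomes 46.6% were wider (35053 DHS, median -0.02). A wider interval takes in a GR peak more easily, as at chr9:46014667-46015788, and the part of this in the difference was not tested.

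By log2 ratio of width, the 4 largest gains were at DHS with GR. The site at chr9:46003930-46005658 went from 826 to 1728 bp, with a log2 ratio of 1.06. Of the 902 bp gained, 707 were at its start, the side away from its GR peak. The site at chr9:46014667-46015788 followed with 0.97. At this site most of the added width was toward the GR peak, and at the first it was away from it. The site at chr9:46066963-46068220 went from 796 to 1257 bp, with a ratio of 0.66, and 431 bp of the gain were at its end, while its GR peak lay 11 bp from the centre of the vehicle interval. The site with 2 GR peaks, chr9:46032917-46034105, went from 779 to 1188 bp, with a ratio of 0.61 and gains of 243 and 166 bp at its ends. The site at chr9:46065493-46066222, with C/EBPβ and no GR peak, came next by ratio, going from 589 to 729 bp with a ratio of 0.31. In bp, the site at chr9:46063852-46065464, with GR, gained more (279 bp, with a ratio of 0.27).

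Among the 19 DHS matched one to one, 1 loss in width stood apart. The site at chr9:46031083-46031590, without GR or C/EBPβ, went from 686 to 507 bp, with a log2 ratio of -0.44 and a like loss at each end. The next, at chr9:46076243-46077000, chr9:46007227-46008326, chr9:46022851-46023507 and chr9:46043033-46044139, had ratios of -0.07, -0.03, -0.01 and -0.0091. The last of these, with the closest GR and C/EBPβ centres of the cluster, was the only DHS with GR that was not wider in the dexamethasone list. Its width was 1113 bp in the vehicle list and 1106 bp in the dexamethasone list. The widest DHS of the cluster had a ratio of 0.02. The vehicle DHS of 1725 bp, split into 2 narrower intervals in the dexamethasone list, has no one-to-one match and is not among these ratios.

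**Figure D4:**
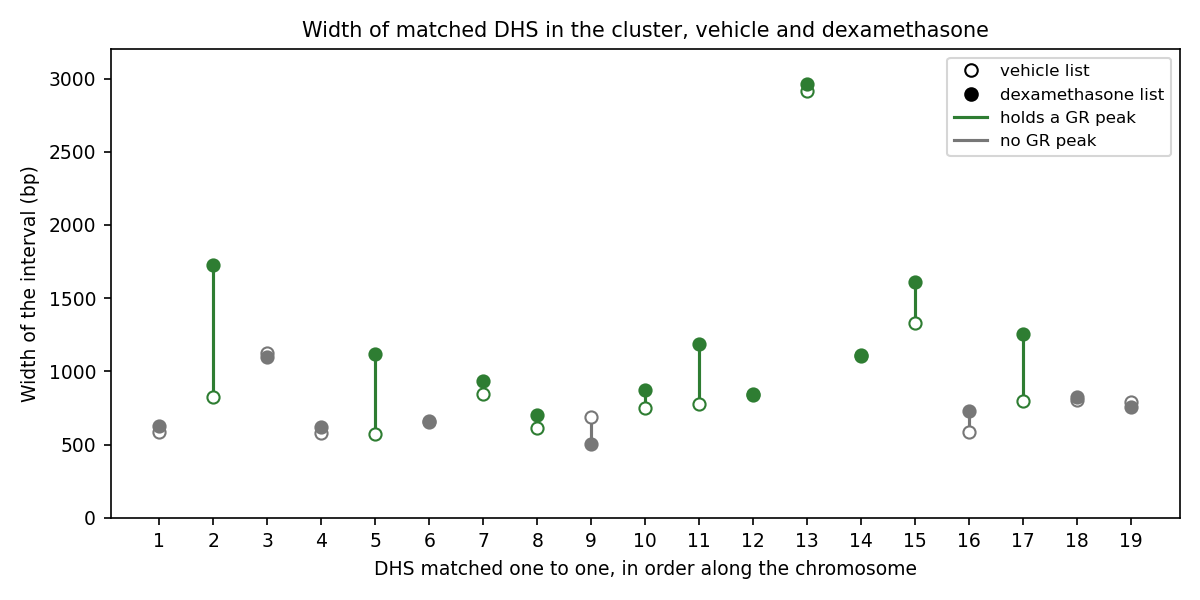
Width in bp of the 19 DHS of the cluster matched one to one, in chromosome order, in the vehicle list (open points) and the dexamethasone list (filled points), green where a GR peak lay in the DHS. Of the 11 green sites 10 are wider in the dexamethasone list, by up to 902 bp, and of the 8 grey sites 4 are.

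Nearly all windows with a like number of vehicle DHS had fewer GR peaks, a comparison set by the choice of the window for its GR peaks. In 365 autosomal windows with a vehicle DHS count within 5 of the 21 of the cluster, the median was 5 GR peaks (quartiles 3 and 8), and 362 had fewer than the cluster. The windows leaned to lower DHS counts, with a median of 17 vehicle DHS (quartiles 16 and 19), and 318 had fewer than the cluster. They had a median of 9 vehicle C/EBPβ peaks (quartiles 6 and 11) and 18 dexamethasone DHS (quartiles 16 and 20), against 14 and 24 in the cluster. The share of GR peaks in vehicle DHS had a median of 87.5% (lower quartile 71.4%), with the cluster at 73.3%. The share of GR peaks with a vehicle C/EBPβ peak had a median of 54.2%, with the cluster at 53.3%.

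Among the windows densest in GR, few had a smaller share of C/EBPβ peaks found only after dexamethasone than the cluster. Its share rests on 1 of 15 peaks. In the 82 other windows with 10 or more GR peaks, that share had a median of 22.2% (quartiles 12.2 and 33.3), and it was below the 6.67% of the cluster in 5 windows and equal in 1. The interval of the cluster (1.19 to 29.8) covers that median. The share of dexamethasone DHS absent from the vehicle list had a median of 20.0% (quartiles 13.8 and 27.6), against 12.5%, and was lower than the cluster in 15 of the 82. The value of the cluster depends on the overlap rule: it was 20.8% with all intervals reduced to 300 bp, which is above that median, and 8.33% with edges within 500 bp. The other windows were not recomputed under these rules. The share of GR peaks in vehicle DHS was close to the usual, with a median of 80.0% against 73.3%. With 15 C/EBPβ peaks and 24 DHS in the cluster, 1 more list-only interval would move these shares by several points.

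In each of the 4 other windows with 15 or more GR peaks, the shares of dexamethasone C/EBPβ peaks and DHS absent from the vehicle lists were above those of the cluster, by little in 1 case. The window at chr9:48500000-48670000 had 17 GR peaks, and 5 of its 16 dexamethasone C/EBPβ peaks and 6 of its 23 dexamethasone DHS were absent from the vehicle lists. The window at chr6:90320000-90490000 had 16 GR peaks, with 7 of 17 and 7 of 26. The window at chr2:32180000-32350000 had 16 GR peaks, with 2 of 10 and 4 of 17. The window at chr2:167500000-167670000 had 15 GR peaks, with 5 of 19 and 3 of 22, the case closest to the cluster in DHS. The apolipoprotein cluster had 1 of 15 and 3 of 24. These differences between windows were not tested.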

How the data were processed

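The authors deposited 5 lists of intervals from DNase-seq, GR ChIP-seq and C/EBPβ ChIP-seq of mouse liver, which give positions in bp and no signal. The submitters' processing notes name CASAVA 1.8 and the build mm9. Not given in the sources used here are the peak caller, its threshold and whether samples were pooled. The RNA polymerase II, input and adenovirus samples were not analysed here.

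Positions are those of the files, whose first base is not stated; intervals were read as starting from 0 and not including their end. Regions were called overlapping when they shared at least 1 bp. DHS were matched one to one for width. Windows of 170 kb were laid on the 19 autosomes in the phase of the cluster, within the span the lists cover. Shares have 95% Wilson intervals, and a share of 0 an upper limit of 3 counts. There is 1 list per condition and no replicate column, so no test was run. The rule for named intervals took all GR peaks (at most 30), DHS with 2 or more GR peaks, the 3 widest DHS of each list, list-only C/EBPβ peaks, list-only DHS with a factor, and the 5 largest width changes in each direction. The vehicle-only and the third dex-only DHS, the C/EBPβ peaks outside DHS and the site with a ratio of 0.02 fall outside it and were named after their values were seen. The members and lists were chosen with earlier results of these data known. Alternatives changed membership, tiling, overlap rule, matching and interval width. Overlap, window counts and matching were tested on simulated intervals. Promoter sequences came from RefSeq (GRCm38.p6). The scripts ran in Python 3.11.15 with pandas 2.3.3, numpy 2.4.6 and scipy 1.17.1, and plots were drawn with matplotlib 3.10.9.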

Additional observations from a re-analysis of the deposited data

How the results depend on the processing

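Of 50 alternatives over 21 results, 44 left the value within 1.5 times (counts) or within its 95% interval (other values). The counts of GR and C/EBPβ peaks were the same with any overlap of the window or with 10 kb added on each side, and each DHS count rose by 1 with the latter. The share of GR peaks in vehicle DHS ranged from 66.7% (300-bp intervals) to 86.7% (edges within 500 bp), and that of GR peaks with a vehicle C/EBPβ peak from 46.7% to 66.7%, and with a dexamethasone one from 46.7% to 73.3%. The share of dexamethasone DHS absent from the vehicle list ranged from 8.33% (edges within 500 bp) to 20.8% (300-bp intervals), around 12.5%. The share of dexamethasone DHS with a GR peak was 29.2% when the centre of the DHS had to lie in the GR peak, which asks a 150-bp interval to hold the centre of a wide one. Intervals of 300 bp lowered coverage by construction, to 3.71% in the vehicle and 4.24% in the dexamethasone list. With windows of at least 1 vehicle DHS alone, 99.7% had fewer dexamethasone DHS and 99.4% fewer dexamethasone C/EBPβ peaks. Of windows within 10 of its vehicle DHS count, 99.7% had fewer GR peaks than the cluster. Of 210 windows within 5 of its dexamethasone DHS count, 98.6% had fewer. No paired analysis was possible because the lists carry no replicate column, and for the same reason no replicate could be left out. Depth is unknown, so intervals missing from a list may lie just under the threshold used.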

Other observations

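The far side of the window held fewer intervals than the window itself or its near side. After the last interval of the window, which ended at chr9 position 46081558, no interval of any list began for 105.9 kb, until a dexamethasone DHS at position 46187501. The next GR peak was 221 kb from the last one of the cluster, and the previous one 70.5 kb before the first. The 170 kb before the window held 5 GR peaks, 11 vehicle and 14 dexamethasone C/EBPβ peaks and 10 vehicle and 18 dexamethasone DHS. The 170 kb after it held 1 GR peak, 3 vehicle and 2 dexamethasone C/EBPβ peaks and 3 vehicle and 5 dexamethasone DHS. Each of these counts was above the median of autosomal windows of 170 kb. Those medians were 0 GR peaks, 0 C/EBPβ peaks in each list and 2 DHS in each list. Just outside the start of the window lay a shared DHS, chr9:45948736-45949339 in the vehicle list, with its centre 0.963 kb from the edge. Just inside it lay a shared DHS at chr9:45957310-45957896.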
